A study of Ovis aries with 7 samples.

Results

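Huntingtin, the gene whose expanded CAG repeat causes Huntington's disease, was counted under 2 of the 26479 features of this sheep striatum study. The members were the 2 features named HTT. One was the sheep Ensembl gene ENSOARG00020020229 on sheep chromosome 6, and the other was an added feature whose identifier is also HTT. The added feature was taken to stand for the human transgene. Which sequence it holds, and how reads matching both features were assigned, are not given in the sources used here.

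The study sequenced single nuclei of frozen striatum from 12 sheep aged 5 years, 6 OVT73 transgenic animals and 6 controls. OVT73 sheep carry a full-length human HTT cDNA with an expanded CAG repeat, driven by a segment of the human HTT upstream sequence, beside their own sheep HTT alleles. Controls were wild-type animals of the same age and carry the sheep gene alone. OVT73 libraries 1, 2 and 3 each pooled nuclei of 2 sheep, control libraries 1 and 2 came from 1 sheep each, and control libraries 3 and 4 pooled 2 sheep each. The pooled sheep were not separated here, so the library was the replicate, with n = 3 OVT73 and n = 4 control libraries.

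Huntingtin is a large scaffold protein made in nearly every cell, with roles in vesicle transport along microtubules, endocytosis, autophagy and transcription. The expanded repeat lengthens its polyglutamine tract. In the striatum, the medium spiny neurons (MSNs), which send the inhibitory output of the striatum and are divided into D1 and D2 types by their dopamine receptor, are the cells most affected in the disease.

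In all, 33226 of 35272 deposited nuclei were kept, between 3119 and 8378 per library, with 19180171 to 66035396 unique molecular identifiers (UMIs, each standing for 1 captured RNA molecule) per library. OVT73 library 1 was the deepest in every total. Clusters were named from marker genes, and 31212 nuclei fell into 13 named classes, of which 10 held at least 10 nuclei in every library. The D1 cluster and the larger D2 cluster each raised 7 of the 9 shared MSN markers, with 2 D1 and 4 D2 markers raised over the other MSNs. The D1 list held TAC1, EBF1, DRD1, PDYN, ISL1 and SLC35D3, and the D2 list DRD2, PENK, ADORA2A, GPR6, SP9 and HS3ST4. For a subtype, 2 raised markers are the fewest the naming rule accepts. The microglia-like cluster raised 11 of 11 microglial markers. One MSN-like class (838 nuclei) had a median of 1304.5 UMIs per nucleus, against 22830 in D1 MSN-like nuclei, took neither subtype's markers, and is called shallow MSN-like. A total of 159 barcode sequences occurred in more than 1 library, and 302 of the kept nuclei carried one of them.

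Added HTT UMIs were found almost entirely in the OVT73 libraries. The nuclei kept held 319 added UMIs in OVT73 library 1, 59 in library 2 and 24 in library 3. Control libraries 1 to 4 held 1, 2, 4 and 6. Every OVT73 library thus lay above every control library in raw UMIs, and library 1 held most of the signal. The share of all features that split the groups in this way was not computed over all nuclei. By class, after scaling to depth and over features that passed a filter on low counts, it ran from 2.61% to 4.25%.

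Scaled to depth, the added feature stood at 4.83 UMIs per 1000000 UMIs (CPM) in OVT73 library 1, 1.55 CPM in library 2 and 0.914 CPM in library 3. The 4 control libraries ranged from 0.0475 to 0.232 CPM. The means were 2.43 ± 2.10 CPM (SD, n = 3) and 0.143 ± 0.0827 CPM (SD, n = 4), a 17.0-fold difference. The exact permutation test, two-sided and over all 35 ways to assign 3 of 7 libraries, gave p = 0.0286, the smallest value this design allows. Without OVT73 library 1 the difference was 8.64-fold, with exact permutation p = 0.0667, again the smallest possible with 6 libraries.

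The control UMIs formed a low background. All 13 lay in separate nuclei, and none of the 13 barcodes was among the deposited barcodes of an OVT73 library. By the approximation of 3 over the number examined, this allows a share of up to 23.1% of such control nuclei. Barcodes outside the deposited matrices could not be searched. Relative to the sheep gene, control libraries held 0.572 to 2.14 added UMIs per 1000 sheep HTT UMIs, and the OVT73 libraries held 54.7, 18.4 and 9.54. The sheep gene itself showed no such split. Over all nuclei it averaged 89.6 ± 5.71 CPM in the OVT73 libraries (SD, n = 3). The control mean was 96.4 ± 13.4 CPM (SD, n = 4; two-sided exact permutation p = 0.429).

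Most added UMIs were read in D1 and D2 MSN-like nuclei. These 2 classes made up 16.1% of the OVT73 nuclei, 62.9% of their UMIs, 63.1% of their sheep HTT UMIs and 79.4% of their added HTT UMIs. By library they held 81.5%, 76.3% and 58.3% of the added UMIs, beside 62.5%, 66.8% and 59.8% of the sheep HTT UMIs, so library 3 showed no excess and library 1 gave 260 of the 319 added UMIs in these classes. D1 MSN-like nuclei held 129, 22 and 10 added UMIs in OVT73 libraries 1, 2 and 3, against 0, 0, 1 and 1 in the control libraries. D2 MSN-like nuclei held 131, 23 and 4, against 0, 0, 1 and 0. In both classes the groups did not overlap, and library 1 was several times above libraries 2 and 3.

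As rates, D1 MSN-like nuclei stood at 6.39, 1.53 and 1.19 CPM in the OVT73 libraries and D2 MSN-like nuclei at 6.24, 2.07 and 0.579 CPM. Control values reached at most 0.185 CPM in D1 and 0.203 CPM in D2. The D1 means were 3.04 ± 2.91 against 0.0732 ± 0.0902 CPM, and the D2 means 2.96 ± 2.93 against 0.0506 ± 0.101 CPM (SD, n = 3 and 4). Both differences gave an exact permutation p of 0.0286, or 0.0714 after adjustment over the 10 classes. As 0.0286 is the smallest p possible, the adjusted value can fall below 0.05 only if most classes reach it. Features with every OVT73 library above every control library made up 3.06% of the 12357 fitted in D1 MSN-like nuclei and 3.29% of the 11930 fitted in D2. Fitted features are those that passed a filter on low counts, and their shares use the normalised values of the fit. The added feature passed that filter in D1 alone, so in other classes its split stands beside a set of features that excludes it.

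**Figure D1:**
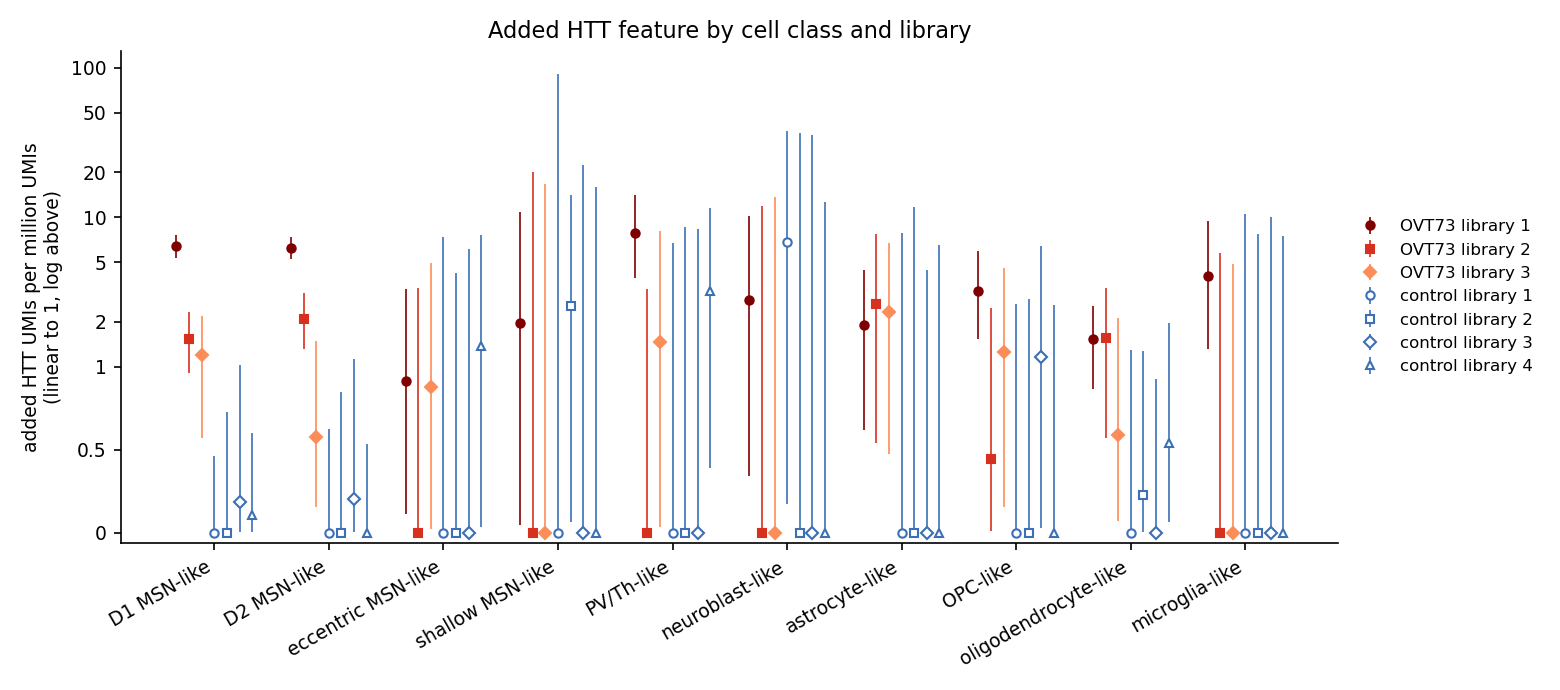
Added HTT level in CPM in the 10 classes with at least 10 nuclei in every library, on an axis that is linear to 1 and logarithmic above. Points are libraries (filled for OVT73, open for control) and bars are exact 95% Poisson intervals, and only in D1 and D2 MSN-like nuclei is OVT73 library 1 clear of all 4 control libraries and of the other OVT73 libraries by these bars.

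Few added UMIs were read under glial barcodes. Free RNA in the droplets can place UMIs in nuclei that do not express a gene, its level was not measured here because empty droplets were not analysed, and its part in the glial counts, ratios and shares was not tested. Oligodendrocyte-like nuclei, the myelinating cells and the largest class, held 15, 6 and 2 added UMIs in the OVT73 libraries and 3 in all control libraries together. Their rates were 1.54, 1.55 and 0.591 CPM, and at most 0.541 CPM in a control library. Astrocyte-like nuclei held 5, 3 and 3, and none in controls, with 1.91, 2.63 and 2.31 CPM in the OVT73 libraries. In astrocyte-like nuclei library 1 was thus the lowest of the 3. Both classes were higher in every OVT73 library than in every control library (each exact permutation p = 0.0286, adjusted 0.0714). So were 3.38% of the 10538 features fitted in oligodendrocyte-like and 2.74% of the 8461 fitted in astrocyte-like nuclei. The added feature itself was fitted in neither class.

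The other classes overlapped between groups. Oligodendrocyte precursor (OPC)-like nuclei held 10, 1 and 2 added UMIs and 1 in controls. PV/Th-like interneurons held 11, 0 and 1, and 2 in controls. Microglia-like nuclei held 5 in library 1 and none in any other library, with an upper 95% limit of 5.79 CPM in library 2 and 4.87 CPM in library 3. Eccentric MSN-like, neuroblast-like and shallow MSN-like nuclei held 3, 2 and 1 added UMIs over all OVT73 libraries and 1 each over the controls. Adjusted exact permutation p-values in these 6 classes ran from 0.171 to 1. All OVT73 libraries lay above all controls for 4.25% of features in OPC-like, 2.71% in PV/Th-like, 2.78% in microglia-like, 3.53% in eccentric MSN-like, 3.1% in neuroblast-like and 2.61% in shallow MSN-like nuclei, and for the added feature in none of them.

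In the fit across all features, the added feature passed the filter on low counts in D1 MSN-like nuclei alone. There its log2 fold change, OVT73 over control, was 5.33 ± 0.97 (SE), with an adjusted p of 0.960 by edgeR's quasi-likelihood test. That fit called 0% of the 12357 features at 0.05, and 473 of them had an unadjusted p below 0.05. The added feature was among these 473, with an unadjusted quasi-likelihood p of 0.000277. DESeq2 gave 5.51 ± 1.22 (SE) with an adjusted p of 0.0268, and it called 0.0243% of its 12352 features. Those higher in OVT73 made up 0.0081%, which is the added feature alone. The feature passed the filter through its OVT73 counts, with 2 UMIs over the 4 control libraries, so both fits rest on a feature admitted by the group in which it is high. In D2 MSN-like nuclei, with 4 UMIs in library 3, the feature did not pass the filter.

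Dividing added by sheep HTT UMIs compares the 2 features within the same nuclei. The ratio does not give a molar ratio, because the capture of each transcript is not known. Intronic reads were counted, by the study's mapping statistics, and the transgene is a cDNA whereas the sheep gene has introns. In OVT73 library 1, D1 MSN-like nuclei held 72.5 added UMIs per 1000 sheep HTT UMIs (95% Clopper-Pearson interval 60.2 to 86.7) and D2 MSN-like nuclei held 70.3 (58.4 to 83.9). The same classes stood at 18.1 and 24.8 in library 2 and at 11.9 and 6.03 in library 3. D1 and D2 lay within each other's intervals in every library.

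Neurons and glia differed in this ratio in OVT73 library 1 and not clearly in the others. Neurons, meaning all MSN and interneuron classes, held 67.1 added per 1000 sheep HTT UMIs in library 1 (59.1 to 75.8), and glia, meaning the oligodendrocyte, OPC, astrocyte and microglia classes, held 25.5 (17.7 to 35.7). The fold between them was 2.63, with an exact 95% interval of 1.84 to 3.85. In library 2 the ratios were 18.6 in neurons and 16.5 in glia, a fold of 1.13 (0.559 to 2.50). In library 3 they were 9.66 and 11.5, a fold of 0.839 (0.331 to 2.39).

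Across the 3 OVT73 libraries the log2 ratio of neurons exceeded that of glia by 0.39 ± 0.88 (SD, n = 3), higher in 2 of 3, with two-sided exact sign-flip permutation p = 0.75. The smallest p this design allows is 0.25. Without OVT73 library 1 the mean was -0.097. Microglia-like nuclei, counted among the glia, held 170 and 184 sheep HTT UMIs in OVT73 libraries 2 and 3 and 0 added UMIs. Their inclusion lowers the glial ratio of those libraries. For the added feature scaled to all UMIs, the log2 difference was 0.56 ± 0.84 (SD, n = 3), higher in 2 of 3, exact sign-flip permutation p = 0.5. Control libraries held 7 added UMIs in neurons and 4 in glia, or 1.21 and 2.04 per 1000 sheep HTT UMIs.

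**Figure D2:**
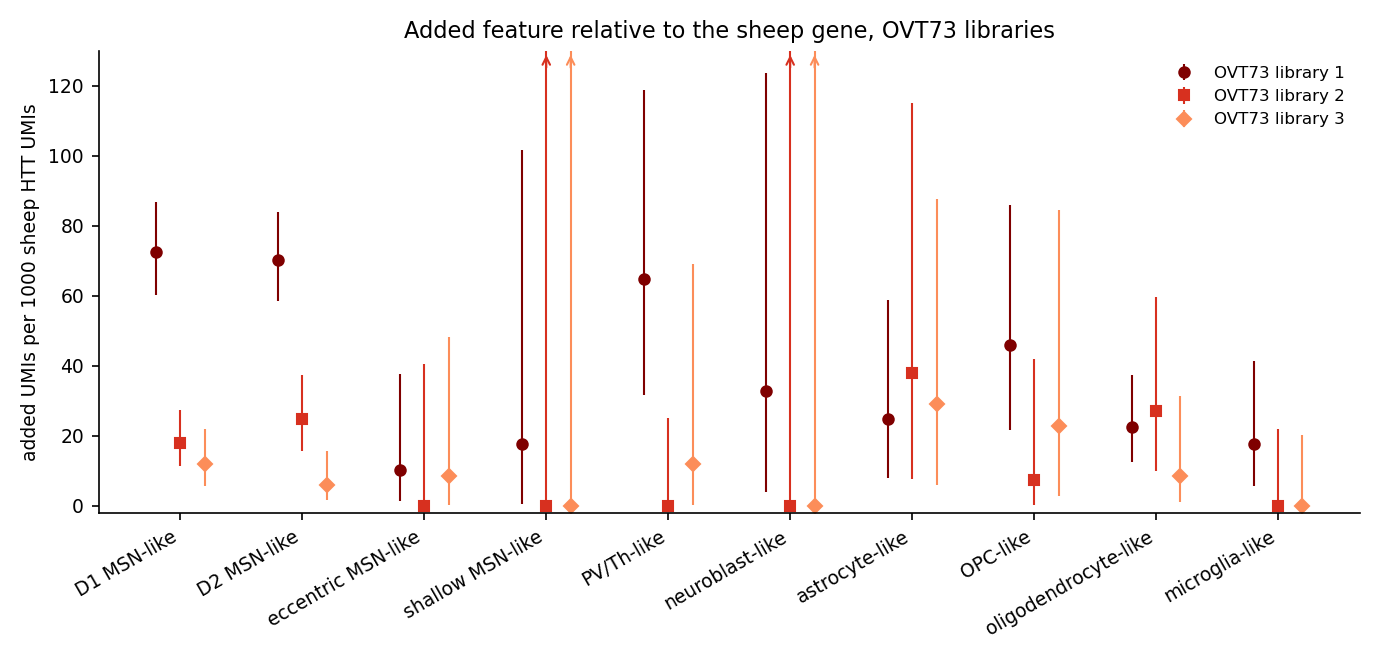
Added HTT UMIs per 1000 sheep HTT UMIs in each class of the OVT73 libraries, with exact 95% Clopper-Pearson intervals covering counting error; arrows mark intervals that run past the axis. Library 1 stands at 72.5 for D1 MSN-like and 70.3 for D2 MSN-like nuclei, whereas in oligodendrocyte-like and astrocyte-like nuclei the intervals of the 3 libraries overlap.

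The classes fell into a spread in library 1. PV/Th-like interneurons held 64.7 added per 1000 sheep HTT UMIs (31.7 to 119), near the D1 and D2 values, and OPC-like nuclei held 45.9 (21.7 to 86.0). Astrocyte-like nuclei held 24.8, oligodendrocyte-like nuclei 22.5 and microglia-like nuclei 17.5. Eccentric MSN-like nuclei held 10.3 (1.24 to 37.7), an interval below those of D1 and D2, from 2 added UMIs against 194 sheep HTT UMIs. This order did not hold in libraries 2 and 3. Astrocyte-like nuclei held 37.97 (7.67 to 115) and 29.1 (5.91 to 87.5) there, each from 3 added UMIs. Both values lay above D1 (18.1 and 11.9) and D2 (24.8 and 6.03), with overlapping intervals. Oligodendrocyte-like nuclei held 27.0 and 8.58, OPC-like nuclei 7.41 and 22.7, and microglia-like nuclei 0 in both.

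In D1 and D2 MSN-like nuclei together, the ratio of library 1 was 3.40-fold that of library 2 (exact 95% interval 2.47 to 4.78) and 7.67-fold that of library 3 (4.49 to 14.2). Library 2 was 2.25-fold library 3 (1.21 to 4.45). In glia the same folds were 1.55 (0.750 to 3.50), 2.22 (0.970 to 5.92) and 1.43 (0.492 to 4.44). Whether the fold between libraries differs between MSNs and glia was not tested. These intervals and all others given here cover counting error only, and each library is a different pair of sheep. By the study's mapping statistics, OVT73 library 1 also had the lowest shares of reads mapped to the genome and antisense to genes of all libraries. Its share of reads mapped to the transcriptome was the highest. The part of these differences in the folds between libraries was not tested.

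The share of nuclei with an added UMI fell from library 1 to library 3 in D1, D2 and oligodendrocyte-like nuclei. In OVT73 library 1 it was 18.2% of 566 D1 MSN-like nuclei (exact 95% binomial interval 15.1% to 21.6%) and 17.1% of 607 D2 MSN-like nuclei (14.2% to 20.4%), at a median of 32023.5 and 31885 UMIs per nucleus. It was 0.369% of 3790 oligodendrocyte-like nuclei (0.202% to 0.619%), at a median of 2192.5 UMIs. Thinned to 1000 UMIs per nucleus, the expected shares were 0.754% in D1, 0.792% in D2 and 0.162% in oligodendrocyte-like nuclei. In library 2 these thinned shares were close together, 0.185%, 0.192% and 0.181%, and in library 3 they were 0.153%, 0.134% and 0.0584%. Oligodendrocyte-like nuclei do not stand for all glia. Astrocyte-like nuclei had thinned shares of 0.433%, 0.468% and 0.212%, below D1 and D2 in library 1 and above both in libraries 2 and 3. That class held only 5, 3 and 3 nuclei with an added UMI, and no interval was computed for thinned shares. OPC-like nuclei had 0.423%, 0.0165% and 0.124%, and microglia-like nuclei 0.489% in library 1 and 0% in libraries 2 and 3. Thinning matches classes for depth only if counts grow with depth. In D1 and D2 MSN-like nuclei of library 1 the added UMIs per nucleus stayed nearly level with depth, as described below.

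Most carrying nuclei held a single added UMI. Of the 1173 D1 and D2 MSN-like nuclei of library 1, 166 held 1 added UMI, 34 held 2 and 7 held at least 3, with 4 as the highest count. Library 2 had 39 such nuclei with 1 and 3 with 2, and library 3 had 14 with 1. In library 1 the 207 carrying nuclei had a median of 32358 UMIs and 85.0 CPM of the sheep gene, and the 966 nuclei with no added UMI had 31779 UMIs and 89.2 CPM. In library 2 the sheep gene stood at 94.4 CPM in carrying and 83.8 CPM in other nuclei, and in library 3 at 88.0 and 98.5 CPM. Carrying nuclei were thus not higher or lower in sheep HTT in the same way across libraries.

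Within D1 and D2 MSN-like nuclei of library 1, added UMIs per nucleus stayed nearly level with depth while sheep HTT UMIs per nucleus climbed. The nuclei were ordered by total UMIs and split into 3 equal parts of 391. Added UMIs numbered 84 in the shallowest, 76 in the middle and 100 in the deepest part, or 215, 194 and 256 per 1000 nuclei. Sheep HTT UMIs numbered 570, 1108 and 1965, or 1458, 2834 and 5026 per 1000 nuclei.

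The ratio therefore fell from 147 added per 1000 sheep HTT UMIs (116 to 186) in the shallowest part to 68.6 (53.6 to 86.6) and 50.9 (41.2 to 62.2). As a rate the added feature went from 11.6 to 6.06 and 4.67 CPM, and the sheep gene from 78.9 to 88.3 and 91.8 CPM. Libraries 2 and 3 held too few added UMIs for each step to be resolved, at 10, 19 and 16 and at 4, 6 and 4. Their lowest ratio was likewise in the deepest part, 14.5 in library 2 and 4.26 in library 3. These parts share a library and were formed after the data had been seen, so the pattern is a description.

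**Figure D3:**
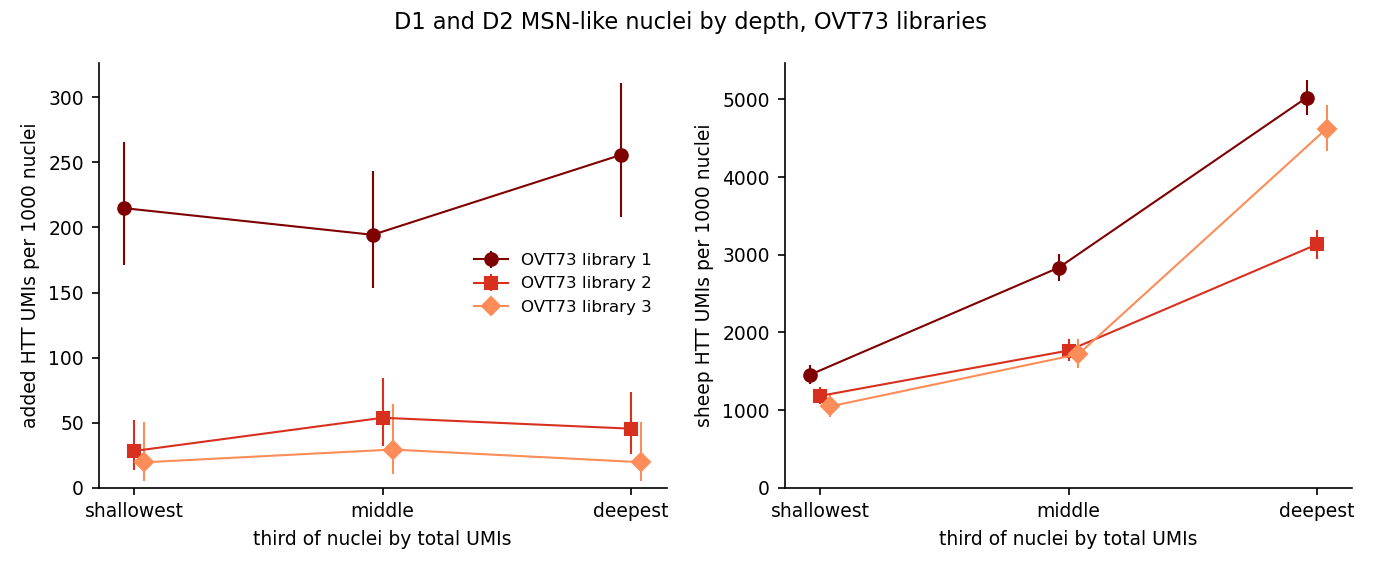
Added (left) and sheep (right) HTT UMIs per 1000 D1 and D2 MSN-like nuclei in each OVT73 library, for equal parts of the nuclei ordered by total UMIs; bars are exact 95% Poisson intervals. In library 1 the added feature stays between 194 and 256 per 1000 nuclei while the sheep gene rises from 1458 to 5026.

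The sheep gene was read in every class with enough nuclei and was highest, in CPM, in microglia-like nuclei, the immune cells of the brain. Microglia-like nuclei stood at 231, 267 and 243 CPM in the OVT73 libraries and at 282, 201, 205 and 179 CPM in the control libraries, a mean of 230 ± 37.3 CPM (SD, n = 7). The lowest microglial value lay above every value of the other 9 classes, of which the highest was 146 CPM, in PV/Th-like interneurons of control library 4. Macrophage-like nuclei, too few to enter this order, averaged 200 ± 127 CPM (SD, n = 7). That mean rests on 36 sheep HTT UMIs in 121 nuclei, so the high level was not particular to microglia-like nuclei. For the added feature the order of microglia-like and MSN-like nuclei was not resolved. Microglia-like nuclei of OVT73 library 1 stood at 4.06 CPM (exact 95% Poisson interval 1.32 to 9.47) and D1 and D2 MSN-like nuclei together at 6.31 CPM (5.57 to 7.13).

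PV/Th-like interneurons came next at 121 ± 18.1 CPM. D2 MSN-like nuclei followed at 97.5 ± 13.1, eccentric MSN-like at 96.8 ± 15.4, D1 MSN-like at 96.3 ± 11.8 and shallow MSN-like nuclei at 94.3 ± 25.8 CPM. Below them lay astrocyte-like nuclei at 77.2 ± 17.8, neuroblast-like at 71.9 ± 30.9 and OPC-like nuclei at 65.9 ± 15.5 CPM (each mean ± SD, n = 7). Oligodendrocyte-like nuclei, just above OPC-like, averaged 69.1 CPM and ran from 57.3 to 91.0 CPM over the 7 libraries.

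None of the 9 pairs of neighbours in this order passed an exact sign-flip permutation test within libraries after adjustment over the pairs. Microglia-like nuclei exceeded PV/Th-like in 7 of 7 libraries, by 0.93 on the log2 scale, with exact sign-flip permutation p = 0.0156, the smallest possible, and 0.141 adjusted. A lone pair at the smallest possible p stays at 0.141, so the adjusted test could not pass for it. PV/Th-like exceeded D2 MSN-like nuclei in 5 of 7 (exact sign-flip permutation p = 0.0625, adjusted 0.281). The 3 MSN classes with deep nuclei differed from one another by less than their SDs (means of 97.5, 96.8 and 96.3 CPM).

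**Figure D4:**
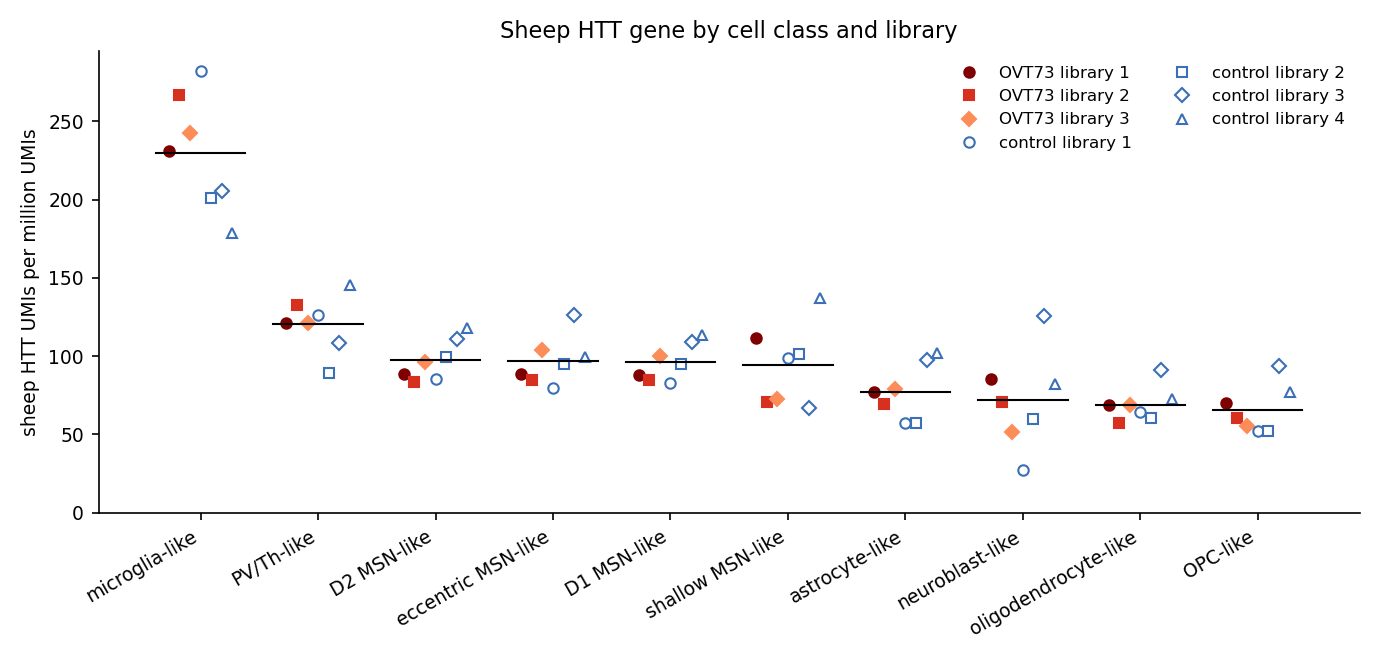
Sheep HTT level in CPM by class and library, classes ordered by the mean over the 7 libraries (black lines); filled points are OVT73 and open points control libraries. Microglia-like nuclei sit between 179 and 282 CPM, above all other points, and the groups overlap in every class.

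Over all neurons, the sheep gene exceeded glia by 0.25 ± 0.15 on the log2 CPM scale (SD, n = 7), higher in 7 of 7 libraries (two-sided exact sign-flip permutation test, p = 0.0156). The sign depends on the glial class. With microglia left out of the glia the difference was 0.50 ± 0.16, and against microglia-like nuclei alone it was -1.23 ± 0.39, lower in 7 of 7 (each exact sign-flip permutation p = 0.0156). Both of these were chosen after the values had been seen.

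Counted per nucleus instead of per UMI, the order changed, since neuronal nuclei held many more UMIs. D1 MSN-like nuclei held 2505 ± 472 sheep HTT UMIs per 1000 nuclei and D2 MSN-like 2465 ± 454, against 345 ± 83.5 in microglia-like and 138 ± 24.0 in oligodendrocyte-like nuclei (SD, n = 7). A sheep HTT UMI was seen in 81.2% ± 4.85 of D1 MSN-like, 27.8% ± 6.18 of microglia-like and 11.9% ± 1.72 of oligodendrocyte-like nuclei. Thinned to 1000 UMIs per nucleus, leaving out shallower nuclei, these shares became 8.62% ± 0.749, 20.3% ± 3.46 and 6.18% ± 0.916.

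The level of the sheep gene did not differ detectably between OVT73 and control libraries in any class. Among D1 MSN-like nuclei it stood at 88.2, 84.8 and 100 CPM in OVT73 and at 83.2, 95.3, 109 and 113 CPM in control libraries. In D2 MSN-like nuclei the 3 OVT73 values were 88.8, 83.5 and 96.0 CPM, and the 4 control values 85.7, 99.7, 111 and 118 CPM. The groups overlapped in both, as in the other 8 classes.

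By edgeR's quasi-likelihood test the log2 fold change, OVT73 over control, was -0.044 ± 0.13 (SE) for D1 MSN-like, -0.11 ± 0.12 for D2 MSN-like and -0.082 ± 0.14 for oligodendrocyte-like nuclei. The largest rise was 0.21 ± 0.16 in microglia-like nuclei and the largest fall -0.18 ± 0.34 in shallow MSN-like nuclei. Adjusted p-values ran from 0.909 to 1.00, no class had an unadjusted p below 0.05, and DESeq2 called the gene in 0 of 10 classes. The same edgeR fits called 0% of features in 9 classes and 0.0137% in eccentric MSN-like nuclei, so the absence of a call is shared with nearly all genes. DESeq2 called 0.0419% of features in D2 MSN-like, 0.111% in OPC-like, 0.057% in oligodendrocyte-like, 0.0304% in microglia-like, 0.0118% in astrocyte-like, 0.0137% in eccentric MSN-like and 0% in the PV/Th-like, neuroblast-like and shallow MSN-like nuclei.

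The contrast between MSNs and oligodendrocytes was also measured in both groups. The sheep gene was higher in MSN than in oligodendrocyte-like nuclei by 0.48 ± 0.10 on the log2 CPM scale in OVT73 (SD, n = 3) and by 0.50 ± 0.20 in control libraries (SD, n = 4). The difference between groups was -0.020 (two-sided exact permutation test, p = 0.886).

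The 10 classes in 7 libraries gave 70 sums, over which 8686 other genes with a mean of at least 10 CPM were ranked by likeness to the sheep gene. PPP1R13B, which encodes a p53-binding regulator of apoptosis, had the highest Pearson correlation of log2 CPM centred per library, at 0.85. PPARD, a lipid-sensing nuclear receptor, also reached 0.85, EXOSC7, a subunit of the RNA exosome, 0.83, and ARHGAP22 0.82. PIK3R5, RAPGEF1, TECPR1, WDFY1, RNF216 and TRPV2 followed, down to 0.81. The sums share libraries, nuclei depth and class composition, so these values describe the pattern only.

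The genes GRK4, RGS12, NOP14 and MSANTD1, which lie near HTT on sheep chromosome 6 in the RefSeq gene order, are given for comparison. GRK4, a kinase of G protein-coupled receptors, ran from 18.5 ± 4.62 CPM in PV/Th-like to 49.8 ± 16.5 CPM in eccentric MSN-like nuclei (SD, n = 7). RGS12, which dampens G protein signalling, ran from 1.75 ± 0.839 CPM in eccentric MSN-like to 69.8 ± 17.8 CPM in neuroblast-like nuclei. NOP14, a ribosome assembly factor, and MSANTD1 were highest in microglia-like nuclei, at 11.3 ± 5.76 and 3.89 ± 2.27 CPM. Their correlations with sheep HTT over the 70 sums were 0.13 for GRK4, -0.35 for RGS12, 0.53 for NOP14 and 0.37 for MSANTD1.

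The neighbours gave no call between OVT73 and control libraries. GRK4 was fitted in 9 classes, RGS12 in 7, NOP14 in 3 and MSANTD1 in 2, and the lowest edgeR adjusted p was 0.768, for GRK4 in eccentric MSN-like nuclei. None had an unadjusted p below 0.05, beside 3.66% to 7.74% of all features by class, and edgeR called at most 0.0137% of all features in a class.

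Genes whose proteins bind, modify or act with huntingtin were followed as a list of 24, of which 20 matched a feature and 11 to 19 passed the filter in a class. The list holds trafficking adaptors, palmitoyltransferases, transcription regulators and caspases. None of its members was called in any of the 10 classes by edgeR or DESeq2, beside at most 0.0137% and 0.111% of all features in a class, so the count says nothing particular to the list. The list's median log2 fold change lay between -0.065 and 0.056 by class, beside medians of -0.029 to -0.0082 over all features tested.

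The 3 smallest p-values in the list are given as values. REST, a repressor of neuronal genes, had a log2 fold change of -0.53 ± 0.23 (SE) in eccentric MSN-like nuclei, with an edgeR adjusted p of 0.616. DCTN1, the dynactin subunit that links cargo to dynein, had -0.91 ± 0.39 in PV/Th-like nuclei (edgeR adjusted p = 0.977). DLG4, the postsynaptic scaffold PSD-95, had 0.60 ± 0.30 in astrocyte-like nuclei (edgeR adjusted p = 1.00). REST and DCTN1 were the only listed genes with an unadjusted p below 0.05, each in that 1 class. That is 1 of 16 listed genes tested in eccentric MSN-like nuclei, where 7.74% of all features had such a p, and 1 of 17 in PV/Th-like nuclei, where 4.55% did.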

How the data were processed

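Per the labels and the study's methods, the authors prepared 3' single-nucleus libraries (Chromium v3.1) and deposited filtered matrices of raw UMI counts made with Cell Ranger 7.0.0 and STAR 2.7.2a on the sheep Rambouillet genome. The deposited counts were used as they stand. The study's mapping statistics give a larger share of reads for the transcriptome than for exons, so intronic reads were counted. Groups come from the sample titles, and libraries are numbered in accession order. P-values set a difference against the variation between libraries, and the smallest p of the exact tests is fixed by the number of libraries.

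Nuclei with 200 to 7500 genes and at most 5% of UMIs on the 11 mitochondrial features named in the files were kept (34611). The 4% with the highest Scrublet doublet score in each library (1385) were removed. Scrublet's own threshold marked 506. Both HTT features were left out of clustering, which used 3000 variable genes, 30 components, a correction by library after Harmony's method, and Louvain clustering at resolution 1 (scanpy 1.11.5, igraph 0.11.9), giving 25 clusters. A cluster was named when more than 0.5 of a class's markers were raised by over 1 on the log2 scale, no other class reached 0.4 of its score and at most 20% of its nuclei were doublets. In addition, no other class could hold more markers among the cluster's most raised genes. Interneurons needed 3 raised markers. 8 clusters stayed unnamed. Endothelial and cholinergic classes were not recovered, and macrophage-like, mural-like and SST/NPY-like classes were too small to test. The naming rule was set after marker profiles, and a first tally of HTT UMIs by class, had been seen, and a difference from the study may come from rebuilt names.

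UMIs were summed per library and class and fitted over all features with edgeR 4.0.16 (filterByExpr, TMM, robust quasi-likelihood, Benjamini-Hochberg adjustment), with DESeq2 1.42.0 as an alternative. The SE beside an edgeR fold change was derived as the absolute log2 fold change over the square root of the test's F statistic. The SE beside a DESeq2 fold change is its own. Single values used exact permutation tests (scipy 1.17.1). In log2 contrasts of sums, 0.5 was added to counts of neurons and glia. The fitting scripts were tested on simulated data. The genes named were the 2 HTT features, chromosomal neighbours, the 10 genes most like the sheep gene, and listed partners with an adjusted p below 0.05 or else the 3 with the smallest p. HAP1, F8A1, CASP6 and the neighbour MFSD10 matched no feature name, and a further listed gene is not reported here. Neighbour order came from RefSeq's ARS-UI_Ramb_v3.0, a different build. Members and lists were chosen with earlier results of these data known.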

Additional observations from a re-analysis of the deposited data

Results flagged for a closer look

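In 6 of 23 sets of 4 control values, 1 library stood apart by Dixon's criterion. All 6 concern the added feature where 3 control libraries were at 0. In such a set any UMI in the remaining library meets the criterion. The rate of about 1 of 20 sets that the criterion allows by chance therefore does not apply to them. The values were 0.203 CPM in D2 MSN-like and 1.16 CPM in OPC-like nuclei of control library 3, 3.20 CPM in PV/Th-like and 1.37 CPM in eccentric MSN-like nuclei of control library 4, 6.83 CPM in neuroblast-like nuclei of control library 1 and 2.54 CPM in shallow MSN-like nuclei of control library 2. Each rests on 1 added UMI, except PV/Th-like nuclei with 2.

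The unnamed clusters, which entered no comparison by class but are part of the values over all nuclei, also carried the added feature. They held 11 added UMIs in the OVT73 libraries, 1.98 CPM when pooled, against 1 UMI and 0.152 CPM in the control libraries.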

How the results depend on the processing

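The difference of the added feature over all nuclei was 17.2-fold with all deposited barcodes, 16.7-fold without barcodes shared between libraries, 19.5-fold scaled to sheep HTT UMIs and 23.3-fold per 1000 nuclei, each with exact permutation p = 0.0286. Leaving out 1 library at a time gave 8.64-fold to 22.4-fold, with p of 0.0667 or 0.1, the smallest these designs allow. The log2 ratio of neurons to glia ran from -0.097 without OVT73 library 1 to 0.75 when 1 library was left out, and was 0.47 with doublets kept, 0.35 with 1 added to each count, 0.41 with coarser clusters, 0.47 with D1 and D2 as the neurons and 0.024 with microglia left out. The sheep gene's log2 difference of neurons and glia was -1.23 against microglia-like nuclei alone and stayed above 0 in its other 11 alternatives. The group difference in its MSN-oligodendrocyte contrast ran from -0.093 to 0.038 when 1 library was left out. Microglia-like nuclei, first in its class order in CPM with any 1 library left out, fell below D1, D2, eccentric MSN-like and PV/Th-like nuclei per 1000 nuclei, and shallow MSN-like nuclei moved above the other MSN classes without OVT73 library 3 or control library 3.

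Of 110 alternative fits of the sheep gene, 0 reached an adjusted p of 0.05 (lowest 0.736), and 17 had the other sign. The added feature was called in 1 class by DESeq2 (D1, log2 fold change 5.51, adjusted p = 0.0268) and in 0 by edgeR, where its adjusted p ran from 0.338 to 0.999. It entered these fits through its OVT73 counts, the group in which it is high, so the call is no independent support. Without OVT73 library 1, OVT73 library 2 or control library 4 it was below the filter in D1. OVT73 and control libraries came from different sheep and were compared unpaired, whereas contrasts between classes were paired within library. Low counts limit the added feature: outside D1 and D2 MSN-like nuclei no class held more than 23 of its UMIs over the OVT73 libraries.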
